A study of Mus musculus with 2 samples.

Results

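The genes described here are MYC, its partner MAX and 38 factors that make ribosomes, as they read in primary osteoblasts, which form bone, from the skull caps of 5-day-old C57BL/6 mice. All 40 genes were chosen by name, and their probe sets are those annotated to that gene and no other. This gave 79 of 34945 such probe sets on the array, and 40 of 18193 genes. The cells were starved of serum overnight and then spent 6 h in fresh serum-free medium at pH 7.2. The control culture had 1 mM phosphate, and the treated culture had 4 mM phosphate, supplied as sodium phosphate, which added sodium too. Both groups share the strain, the cell source and the serum starvation, and how many mice or cultures went into each RNA sample is not given in the sources used here. Each group was 1 array, so no replicate error exists and no test between the conditions was run. Precision is limited throughout by this number of arrays.

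MYC is a transcription factor that binds DNA as a pair with MAX, at a short palindrome called the E-box, and it is widely known to drive the genes of ribosome production when cells are stimulated to grow. Making a ribosome starts in the nucleolus, where RNA polymerase I transcribes the long ribosomal RNA precursor. Small nucleolar ribonucleoproteins (snoRNPs) modify it, and assembly factors then cut, fold and package it into the small and the large subunit. In bone-forming cells, protein synthesis on these ribosomes feeds the secretion of matrix collagen.

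The E-box CACGTG, which reads the same on both strands, was looked for in RefSeq promoter windows of mouse build GRCm38.p6, held for 34 of the 40 genes. Myc, Npm1, Fbl, Rrp12, Bop1 and Rrs1 had no window in the table used. Within 250 bases before the annotated start, 3 of 34 genes (8.82%) held it, against 6.86% of 27025 genes with a window and 9.88% of the 9901 that were also measured. The whole window of 300 bases adds 50 bases after the start and was chosen after the first count was known. There the motif was found in 10 of 34 genes (29.4%), against 11.7% of the measured genes. Of 88 other ribosome assembly genes with a window, 16 (18.2%) held it in the 300 bases and 9 (10.2%) in the 250. These windows often lie in sequence rich in C and G, and a match is a match of letters only. The following sites are shown because they cover the range of log2 ratios among genes that share the motif, from the highest of the 40 to the lowest. The E-box is in capitals, the gene's own strand is written 5′ to 3′, and positions are GRCm38.p6. The start is that of the RefSeq window, which for Max is another annotated start, at base 76962248, inside the gene's full extent to 76962323. Wdr43, named after the sequences, likewise has its window at an inner start, at base 71616215 of a gene that begins at 71616178.
Nop2, plus strand, chr6:125131811-125131840, E-box starting 60 bases before the start: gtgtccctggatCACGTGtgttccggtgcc
Rrn3, plus strand, chr16:13780639-13780668, E-box starting 48 bases before the start: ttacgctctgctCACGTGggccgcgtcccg
Utp18, minus strand, chr11:93885769-93885798, E-box starting 20 bases before the start: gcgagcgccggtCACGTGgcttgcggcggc
Pes1, plus strand, chr11:3963965-3963994, E-box starting at base 3 after the start, in the transcribed part: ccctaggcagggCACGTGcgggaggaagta
Max, minus strand, chr12:76962234-76962263, E-box starting 3 bases before that inner start and running across it: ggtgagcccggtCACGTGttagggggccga

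Rrn3 held a second E-box, which started 215 bases before its start. The other genes with the motif in the whole window, Mybbp1a, Wdr43, Tsr1, Utp20 and Ltv1, had it after the start. The 10 genes with an E-box in the whole window had a median log2 ratio of 0.17, and the 24 without one had 0.15. Over all measured genes these medians were −0.04 with the motif and −0.06 without.

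None of the 40 genes differed 2-fold between the arrays. Signals are MAS5 units, which the authors scaled to the same average on both arrays, and values below a floor of 21.5 were raised to it before the log2 ratio, phosphate minus control, was taken. All 40 genes lay above the floor on both arrays. Of 12241 genes measured, 2.28% reached 2-fold upwards in 4 mM phosphate and 2.92% downwards, against 0 of the 40 in either direction. Shares this small leave few to be found among 40 genes, so the count of 0 does not set these genes apart. At 1.5-fold, 1 of the 40 genes, Nop2, was higher and none was lower, where 7.25% of all measured genes were higher by that factor and 12.1% lower. The 40 ratios ran from −0.34 to 0.69 and lay a little above the rest as a group. Their median was 0.15, against −0.06 for all measured genes, and 26 of 40 were above 0, against 44.1% of all measured genes. These signs hold for the authors' scaling. With spiked-in control RNAs, here and below the poly-A spikes, set to equal signal instead, the ratios of the 40 are lower by 0.46. Then 3 of them (7.50%) stay above 0, against 10.6% of all measured genes. The other spiked-in set, the hybridisation spikes, had a smaller median log2 ratio of 0.23. Scaling to that set was not tried.

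Across all genes named by the probe sets, many had several that gave usable signals in the control and in phosphate. The disagreement between probe sets of 1 gene is the only error that can be given. It is technical and leaves out differences between cultures. The log2 ratios of probe sets of 1 gene had a standard deviation (SD) per probe set of 0.42 for dimmer signals from the floor to 100, of 0.26 from there to 400, and of 0.16 beyond 400. These SDs pool 1178, 1170 and 1160 genes in turn, and are not the spread of the 40 genes alone. By this measure, and under the authors' scaling, 6 of the 40 genes were more than 2 SD above 0 and none was more than 2 SD below it. Of 11184 genes above the floor on both arrays, 8.40% were more than 2 SD higher and 14.1% more than 2 SD lower. The 6 genes were Polr1c, Nop2, Fbl, Wdr75, Nop16 and Ddx10, by their brightest probe set, and a dimmer one of Nop16 gave −0.21. With the spiked-in control RNAs set to equal signal, the highest of the 40, Nop2, was at 0.23, less than its SD of 0.26. Max was then at −0.80, more than 2 SD below 0. Several others were also more than 2 SD below it, among them Ubtf (−0.71), Rrs1 (−0.67) and Bop1 (−0.65). Ratios depended on brightness, and only 1 of the 40 genes was in the dimmest range. Among genes whose dimmer signal was above 400, the 22 of the list had a median of 0.17 and the other 4004 had −0.01, and between 100 and 400 the 17 of the list had 0.14 and the other 4047 had −0.10.

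**Figure D1:**
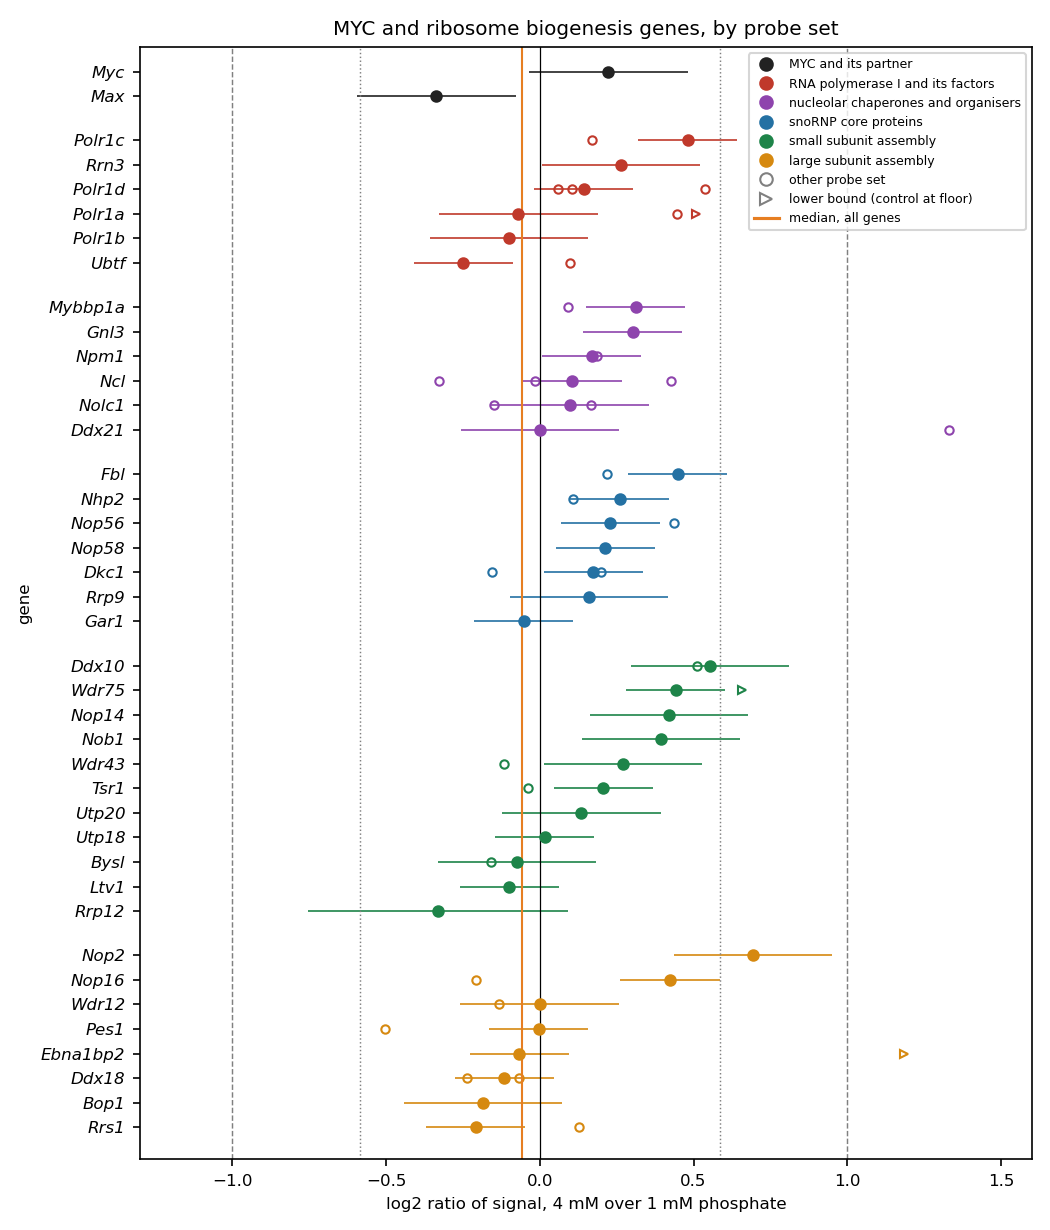
Log2 ratio of signal, 4 mM over 1 mM phosphate, for each measured probe set of the 40 genes, grouped by role; filled points are the brightest probe set with 1 technical SD as the bar, open points are the other probe sets, triangles are lower bounds, dashed lines mark 2-fold, dotted lines 1.5-fold, and the orange line the median of all genes measured. Every filled point lies inside the 2-fold lines and Nop2 alone lies beyond 1.5-fold, while open symbols of Ddx21 and Ebna1bp2 lie beyond 2-fold; with the poly-A spikes as reference the filled points would move left by 0.46.

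Myc itself read 355 on the control array and 414 on the 4 mM phosphate array, a log2 ratio of 0.22 or 1.17-fold. Its single probe set was within 1 technical SD of no difference. Max, the partner that MYC needs to bind DNA, went from 502 to 398, a log2 ratio of −0.34, the lowest of the 40. Under the authors' scaling the pair thus pointed in opposite directions, both within 1.5-fold and less than 2 technical SD from 0. With the spiked-in control RNAs set to equal signal, both were below 0, Myc at −0.24 and Max at −0.80.

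Other members of the MYC network include some that compete for MAX or for its sites. Of 12 listed, 10 were measured, 7 of them above 0, with a median of 0.19. That median was 0.06 when the median over the probe sets of each gene was taken. It was −0.27, with 0 genes above 0, with the spiked-in control RNAs set to equal signal. Of the 10 measured, 1 was at least 2-fold lower under the authors' scaling. That gene was Mycn, the MYC paralog best known from the embryo and the nervous system, with signals of 82.5 and 28.8 and a log2 ratio of −1.52 from its single measured probe set. Both signals were in the dimmest range, where the technical SD was 0.42. The next lowest was Mxd4, a MAX-binding repressor, at −0.29, whose probe sets ranged from −0.57 to 0.68. The highest were Mga, a MAX-binding repressor subunit, at 0.38, and Mnt, another MAX-binding repressor, at 0.28, and the probe sets of Mga ranged from −0.47 to 0.62.

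RNA polymerase I and its factors showed no common direction, with 3 of 6 genes above 0 and a median of 0.04. Polr1c, a subunit that RNA polymerase I shares with RNA polymerase III, was the highest at 899 in the control and 1255 in phosphate (log2 ratio 0.48), and its dimmer probe set gave 0.17. Polr1d, the other shared subunit of this pair, went from 3755 to 4146 (0.14), with its 3 other probe sets between 0.06 and 0.54. Under the authors' scaling, the shared subunits were thus above 0 on each of their 6 probe sets. With the spiked-in control RNAs set to equal signal, Polr1c was at 0.02 and Polr1d at −0.32. Polr1a and Polr1b, which form the catalytic centre, had log2 ratios of −0.07 (signals of 129 and 123) and −0.10 (114 and 107). Polr1a is uncertain in sign, since a dimmer probe set gave 0.45 and another, at the floor in the control, gave at least 0.51.

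Rrn3, the factor that carries growth signals to RNA polymerase I and holds 2 E-boxes before its start, went from 257 to 308, a log2 ratio of 0.26. Ubtf, which binds ribosomal DNA and keeps it open for transcription, went from 684 to 576 (−0.25), with 0.10 on a dim second probe set. Under the authors' scaling, the brightest probe sets of these initiation factors lay on opposite sides of 0, each by less than 2 technical SD. With the spiked-in control RNAs set to equal signal, both were below 0, Rrn3 at −0.20 and Ubtf at −0.71. Of 12 further RNA polymerase I subunits and factors, all measured, 8 were above 0 and none differed 1.5-fold, with a median of 0.06. Their highest were the subunit gene Cd3eap at 0.48 and Taf1d, of the promoter-selectivity complex, at 0.32. The lowest were Taf1b, of the same complex, at −0.52 and the termination factor Ttf1 at −0.42. Taf1d had probe sets between −0.14 and 1.04, and those of Ttf1 lay between −0.42 and 0.19.

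**Figure D2:**
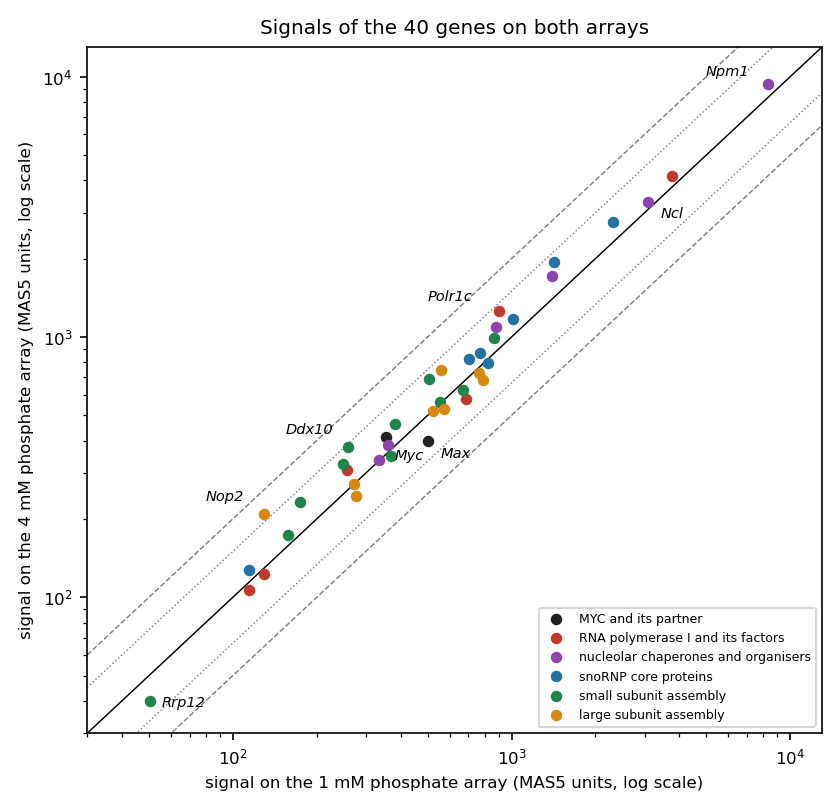
Signal of each of the 40 genes on the 1 mM phosphate array (horizontal) and the 4 mM phosphate array (vertical), both in MAS5 units on log scales, from the brightest probe set; the solid line is equality, dotted lines are 1.5-fold and dashed lines 2-fold, and colours give the role. The points follow the line of equality from Rrp12 at 50.2 and 39.9 to Npm1 at 8305 and 9339, and only Nop2 lies outside the dotted lines.

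The abundant nucleolar proteins that organise the compartment had 6 of 6 genes above 0 and a median of 0.14, although Npm1 came to 0.00 after quantile normalization. Npm1, nucleophosmin, a chaperone of ribosomal proteins and histones, went from 8305 to 9339 (log2 ratio 0.17), and its other probe set gave 0.19. Ncl, nucleolin, which binds the rRNA precursor, went from 3078 to 3311 (0.11). Its other measured probe sets gave −0.33, −0.02 and 0.43, so they did not settle a direction. Gnl3, nucleostemin, a GTP-binding protein of growing and stem cells, went from 1392 to 1718 (0.30). Mybbp1a, a MYB-binding nucleolar protein that also acts on RNA polymerase I, went from 879 to 1091 (0.31), with 0.09 on its other probe set. Nolc1, a scaffold that binds snoRNPs, stood at 360 and 385 (0.10), with −0.15 and 0.17 on dimmer probe sets.

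Ddx21, an RNA helicase that couples RNA polymerase I transcription to rRNA processing, had the widest disagreement of the group. Its brighter probe set read 335 on both arrays, a log2 ratio of 0.00. The dimmer one read 116 in the control and 292 in phosphate, 2.51-fold higher or 1.33 in log2 ratio. The gap between them can be set against the technical SD of 0.26 in that signal range. With the median of its probe sets Ddx21 would stand at 0.67, the second of the 40 beyond 1.5-fold.

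Core proteins of the snoRNPs, the particles that guide modification of rRNA, were above 0 in 6 of 7 genes, with a median of 0.21. Fbl, fibrillarin, the methyltransferase of the box C/D particles, was the highest at 1424 in the control and 1943 in phosphate (log2 ratio 0.45), and its dimmer probe set gave 0.22. Nop56 and Nop58, the paired scaffold proteins of the same particles, went from 702 to 824 (0.23) and from 1012 to 1172 (0.21). A second probe set of Nop56 gave 0.44. Under the authors' scaling, all 5 probe sets of these 3 box C/D genes therefore lay above 0. With the spiked-in control RNAs set to equal signal, the 3 genes were at −0.01 (Fbl), −0.23 (Nop56) and −0.25 (Nop58). Rrp9, the protein that marks the snoRNP needed for the early cuts of the precursor, was dim, at 114 and 128 (0.16).

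The box H/ACA particles, which convert uridine to pseudouridine, were less uniform. Nhp2, one of their core proteins, went from 2305 to 2760 (log2 ratio 0.26), with 0.11 on its other probe set. Dkc1, dyskerin, the pseudouridine synthase, went from 768 to 867 (0.17), while its other probe sets gave 0.20 and −0.16. Gar1 stood at 825 and 796 (−0.05). In units of the technical SD of 0.16 at these signals, Dkc1 was 1.08 SD above 0 and Gar1 was −0.32 SD from it.

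Assembly factors of the small subunit were above 0 in 8 of 11 genes, with a median of 0.21. Ddx10, a helicase of the early small-subunit particle, had the highest ratio of this group, at 259 in the control and 379 in phosphate (log2 ratio 0.55), and its other probe set gave 0.51. Wdr75, a subunit of the complex that joins transcription to the first processing steps, went from 507 to 689 (0.44). Its second probe set, at the floor in the control, gave at least 0.66. Nop14, of the same early particle, went from 174 to 233 (0.42), and Nob1, the nuclease that makes the last cut of small-subunit rRNA, went from 248 to 326 (0.39). These 4 genes had the highest ratios of the 11, so their brightest probe sets lay above 0 by that choice. Their other measured probe sets did too, and none of the 4 reached 1.5-fold on its brightest one. With the spiked-in control RNAs set to equal signal, Wdr75 (−0.02), Nop14 (−0.04) and Nob1 (−0.07) were below 0 and Ddx10 (0.09) above it.

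Wdr43, which works in the same complex as Wdr75, went from 383 to 462 (log2 ratio 0.27), but its second probe set gave −0.12. Tsr1, a late assembly factor that resembles a GTPase, went from 862 to 994 (0.21), with −0.04 on the other. Utp20, a large scaffold protein, stood at 157 and 173 (0.14), and Utp18, a subunit of the processome, at 554 and 560 (0.02). Bysl, a factor of late small-subunit maturation, stood at 368 and 350 (−0.07), with −0.16 on its other probe set, and Ltv1, an export-linked factor, at 672 and 627 (−0.10). Rrp12, a transport and maturation factor, was the lowest of this group at 50.2 and 39.9 (−0.33). Its signals lay in the dimmest range, and its ratio was smaller than the technical SD of 0.42 there.

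Among 40 further small-subunit factors, all of them measured, 25 were above 0 and the median was 0.04. None was 2-fold different, and 2 (5%, against 7.25% of all measured genes) were at least 1.5-fold higher. They were Nol6, with signals of 43.4 and 77.2 and a log2 ratio of 0.83 on each of its 2 probe sets, and Imp3, at 1427 and 2161 with 0.60, both of the early particle. The lowest were Utp6, of the processome, at −0.53 and the helicase gene Dhx37, which was below the floor in phosphate and had a ratio of at most −0.45.

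The large-subunit group held the highest of the 40 ratios, with 2 of 8 genes above 0 and a median of −0.04, which was 0.01 after loess correction and 0.02 with the median of all genes set to 0. Nop2, a methyltransferase of large-subunit rRNA long known as a proliferation antigen, went from 130 in the control to 210 in phosphate, 1.62-fold or 0.69 in log2 ratio. It was represented by 1 probe set, and its gene lies at chr6:125131883-125144753 just beyond the E-box shown above. Nop16, a factor of the early large-subunit particle, went from 558 to 748 (0.42), although a probe set near the floor gave −0.21.

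Pes1, Bop1 and Wdr12 form the PeBoW complex, which is needed to process the large-subunit precursor and is a known target of MYC. None of the 3 was above 0 under the authors' scaling. Pes1 read 521 and 519 (log2 ratio 0.00, rounded), Wdr12 read 272 and 271 (0.00, rounded), and Bop1 read 278 and 244 (−0.18). Dimmer probe sets of Pes1 and Wdr12 gave −0.50 and −0.13. The lowest of these 5 probe sets had signals of 78.5 and 55.3. The sign of Pes1 and Wdr12 rests on the scaling, since they came to 0.03 and 0.05 after quantile normalization, 0.05 and 0.07 after loess correction, and 0.05 and 0.06 with the median of all genes set to 0, while Bop1 was below 0 under all 3.

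The remaining large-subunit factors lay close to 0 or below it. Rrs1, which brings in the 5S particle, went from 791 to 685 (log2 ratio −0.21), but its other probe set gave 0.13. Ddx18, a helicase, went from 575 to 530 (−0.12), with −0.07 and −0.24 on its other probe sets. Ebna1bp2, a partner of the early large-subunit factors, stood at 761 and 727 (−0.07). A second probe set of Ebna1bp2 read 21.4 in the control, just under the floor, and 48.8 in phosphate, which makes it at least 2.27-fold higher. That value rests on a signal close to background and opposes the bright one. A list of further large-subunit factors also held some snoRNP proteins, such as Nop10, Naf1 and Shq1. Of its 52 genes measured, 37 were above 0 and none differed 1.5-fold, with a median of 0.13. Their highest were the histone-binding factor Grwd1 at 0.58 and Eif6, which keeps the subunits apart, at 0.51, and the lowest were the helicase gene Ddx56 at −0.51 and the AAA ATPase gene Nvl at −0.45.

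Of the 79 probe sets of the 40 genes, 72 were above the floor on at least 1 array, 46 of them with a log2 ratio above 0 and 26 below. The 7 others, at the floor on both arrays, gave no value. Among the 24 genes with several measured probe sets, all of them had the same sign in 14 genes and mixed signs in 10. Counting probe sets instead of genes, 2 were at least 2-fold higher, the dimmer ones of Ddx21 and Ebna1bp2, and none was 2-fold lower. That is 2 of 72, where 2.62% of all 21588 measured probe sets naming 1 gene were 2-fold higher and 2.54% lower.

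Lists next to this machinery gave the following counts. Ribosomal protein genes, the protein parts of the ribosome, were above 0 in 33 of 34 measured genes, with a median of 0.21, and 24 of the 59 listed lacked a probe set of their own. Rps27 was the highest, with dim signals of 98.5 and 236 (log2 ratio 1.26), followed by Rpl12 at 0.34, and the lowest were Rps6 at −0.18 and Rpl14 at 0.05. Above a dimmer signal of 2000, where 28 of them lay at a median of 0.21, the other genes that were neither ribosomal protein genes nor among the 40 had a median of 0.05. Quantile normalization brought their median to 0.02 and a loess correction to 0.06, and scaling to the poly-A spikes gave −0.25, so the direction rests on the scaling.

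RNA polymerase III, which makes the smallest rRNA and transfer RNAs, had 6 of 20 measured genes above 0 and a median of −0.09. The lowest were the subunit genes Polr3gl, at 151 and 80.0 (log2 ratio −0.92), and Polr3b, at 134 and 76.0 (−0.82). Both were lower by 1.5-fold or more, which is 10% of the 20 measured, against 12.1% of all measured genes. The highest were Bdp1, an initiation factor gene, at 0.38 and the subunit gene Polr3d at 0.13. Subunits and cofactors of the RNA exosome, which trims rRNA ends, were above 0 in 3 of 13, with a median of −0.15. Exosc5 was at −0.62 and Exosc4 at −0.39, against 0.32 for Exosc3 and 0.24 for Exosc8. Of the 13, only Exosc5 was lower by 1.5-fold (7.69%, against 12.1% of all measured genes). Both lists lay closer to the median of all measured genes, −0.06, than the 40 genes did.

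Genes of metabolism and translation that are known as MYC targets had a median of 0.15. Of 30 measured, 21 were above 0 (70%), against 44.1% of all measured genes. Near the shares of all genes, 3 were at least 1.5-fold higher (10%, against 7.25%), and 1 of them at least 2-fold (3.33%, against 2.28%). That one was Hk2, hexokinase 2, at 256 and 598 (log2 ratio 1.23). Slc16a1, a lactate transporter gene, followed at 0.81 and Odc1, the first enzyme of polyamine synthesis, at 0.76, with 0.66 to 1.52 over its probe sets; Odc1 was picked out after its value was seen. The lowest were genes of nucleotide synthesis, Cad at −0.54 and Gart at −0.54, neither of which reached 1.5-fold. This list was put together from general knowledge and its members have many other regulators.

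**Figure D3:**
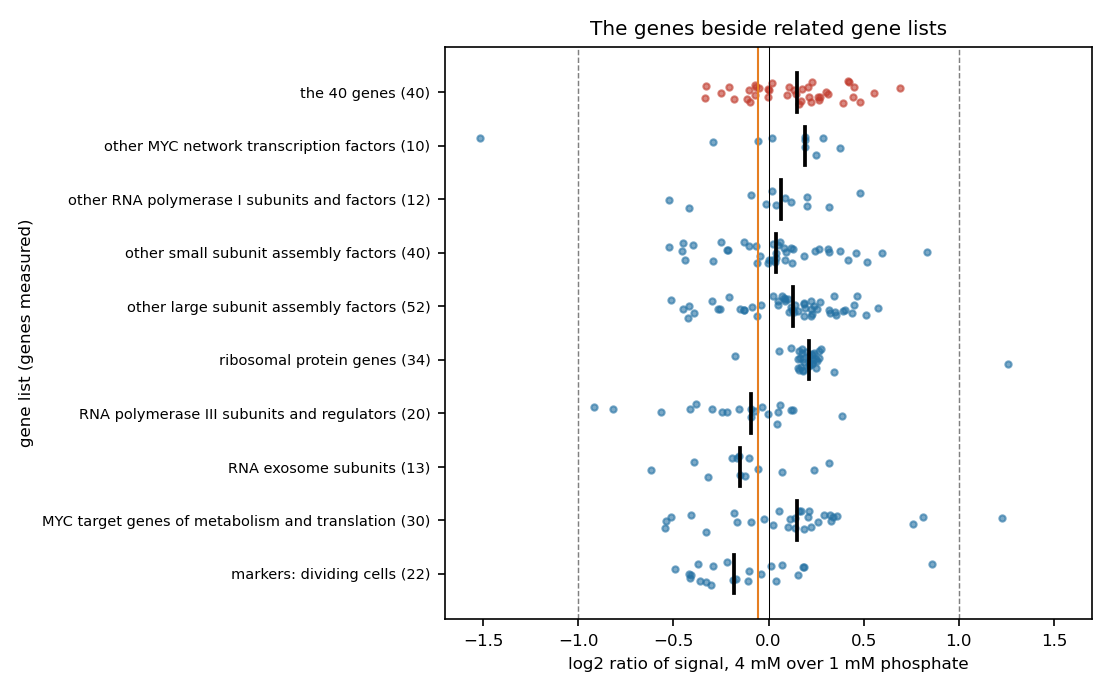
Log2 ratio of signal, 4 mM over 1 mM phosphate, for each measured gene of the 40 (red) and of 9 related lists (blue), with the number of genes measured in brackets; black bars are list medians, the orange line is the median of all genes measured and dashed lines mark 2-fold. The 40 genes lie between −0.34 and 0.69 with a median of 0.15, the ribosomal protein genes cluster around 0.21, and Mycn, Rps27 and Hk2 lie beyond 2-fold; with the poly-A spikes as reference every median would be below 0.

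The markers of the labelled cell type were present. Of 10 osteoblast markers, 7 had a probe set that named only them and all 7 were above the floor. Their signals summed to 68383 in the control and 76793 in phosphate. The median log2 ratio of these markers was 0.11, with 4 above 0, and Sp7, Pth1r and Alpl below it. It was −0.10 after quantile normalization and −0.05 after loess correction. Of 8 endothelial markers, 0 were above the floor. Macrophage and osteoclast markers were present in 15 of 16 genes, summed at 19316 and 17671 with a median log2 ratio of −0.33, and Itgam was at the floor. Chondrocyte markers were present in 8 of 8, at sums of 18456 and 18095. Markers of dividing cells were above 0 in 7 of 22 measured genes, with a median of −0.18 and sums of 15469 and 14810. In such mixed cultures fewer cells of a type and less RNA per cell cannot be told apart, and the part of these markers in the ratios above was not tested.

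The place of the 40 genes relative to 0 turned with the scaling. The poly-A spikes, bacterial RNAs that are mixed in ahead of labelling, read higher in phosphate, with a median log2 ratio of 0.46. Scaled to them, the median of the 40 genes was −0.31 and that of all measured genes −0.51. Only Nop2, Ddx10 and Polr1c then stayed above 0, and 5 genes were at least 1.5-fold lower, namely Max, Rrp12, Ubtf, Rrs1 and Bop1. The shares were 7.50% above 0, against 10.6% of all measured genes, and 12.5% at least 1.5-fold lower, against 41.8%. Over the reported and the 10 other ways of processing tried, the median of the 40 exceeded that of all measured genes by 0.18 to 0.22, and the count of genes 2-fold different was 0 in either direction each time. Scaling to the spikes or to the median of all genes shifts all genes by 1 constant, apart from those at the floor, and so leaves that gap almost as it was by construction.

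**Figure D4:**
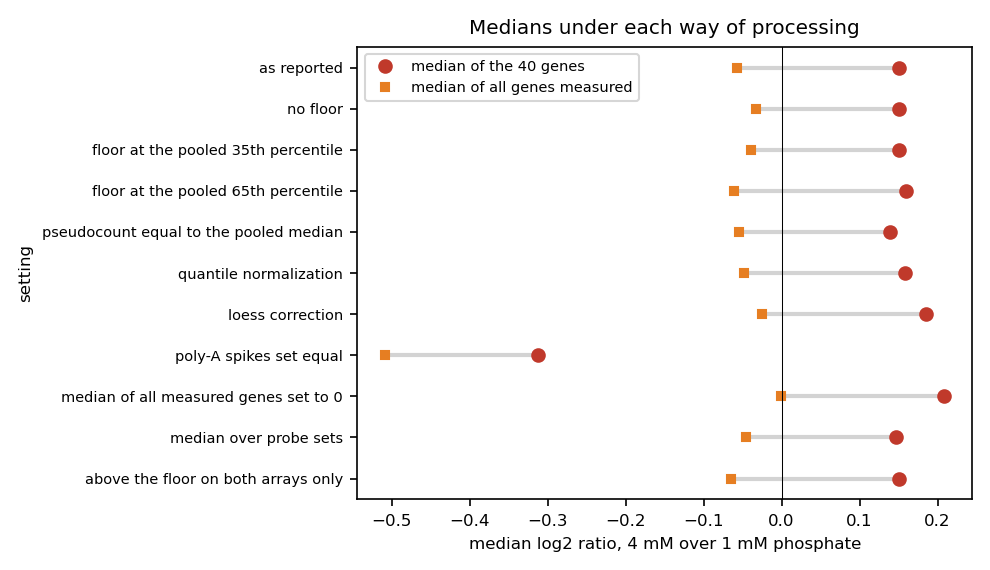
Median log2 ratio, 4 mM over 1 mM phosphate, of the 40 genes (red circles) and of all genes measured (orange squares) under the reported processing and 10 alternatives; grey bars join the medians of a setting. The red circle lies to the right of the orange square in every row, and both lie below 0 with the poly-A spikes set equal, at −0.31 and −0.51.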

How the data were processed

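Biotin-labelled cRNA from 100 ng total RNA was hybridised to 1 Affymetrix mouse array per group, per the labels' protocols. The deposited values are linear intensity values, 1 per probe set, made by the authors with MAS5 (GCOS 1.4), as the submitters' processing notes list. MAS5 scales each array by 1 factor, so a change in total mRNA per cell is hidden; the mean without the lowest and highest 2% was 200.00 on both arrays. Of 45037 mouse probe sets, 34945 named 1 gene, 932 several and 9160 none in the platform annotation; symbols were checked by Entrez identifier against RefSeq (GRCm38.p6), which held 34741 of them, and 0 changed. Values below the pooled median (21.5) were raised to it, log2 ratios were taken, and the brightest probe set by mean log2 signal stood for a gene. A gene was measured if that probe set was above the floor on at least 1 array. Promoter windows (250 bases before to 50 after a start) came from RefSeq. Genes named from the related lists were the 2 highest and 2 lowest of each and any at least 2-fold different. The genes, lists and alternatives were chosen with earlier results of these data known. Functions were tested on simulated data. Python 3.11.15, numpy 2.4.6, pandas 2.3.3 and statsmodels 0.14.6 were used.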

Additional observations from a re-analysis of the deposited data

Results flagged for a closer look

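Spike-in probe sets of the array maker, left out of all gene comparisons, read higher in phosphate. The median log2 ratio was 0.46 for 24 poly-A spike probe sets, with a range of 0.20 to 0.65, and 0.23 for 18 hybridisation spike probe sets, with a range of 0.14 to 0.47. They stand out as a signal outside the gene measurements that differs between the arrays, and the poly-A value exceeds the log2 ratio of 37 of the 40 genes.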

How the results depend on the processing

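No paired analysis was possible because each group was 1 array. The 10 alternatives were leaving the floor out, a floor at the 35th or the 65th pooled percentile, a pseudocount, quantile normalization, loess correction, poly-A spikes set equal, the median of all genes set to 0, the median over probe sets, and genes above the floor on both arrays only. Under each of them 0 of the 40 genes reached 2-fold in either direction. The count at least 1.5-fold higher, 1 as reported, became 2 with quantile normalization, loess correction or the median of all genes set to 0 (Nop2 and Ddx10), 2 with the median over probe sets (Nop2 and Ddx21), and 0 with the poly-A spikes set equal. Under the last, 5 genes were at least 1.5-fold lower and the median of the 40 was −0.31, since the ratio of each moved by −0.46. Otherwise the median stayed between 0.14 and 0.21. With the 65th percentile as floor, Rrp12 was no longer measured. The median over probe sets moved 7 of the 40 genes by more than 1 technical SD, among them Ebna1bp2 to 0.56 and Polr1a to 0.45. Arrays with a signal near the floor limit what can be said of dim probe sets.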
